A study of Mus musculus with 16 samples.

Results

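The comparison set the epididymis of mice at postnatal day 2 (pnd2) against that at gestational day 12 (gd12), the last and the first stage of a developmental series, and asked by which stage the midpoint of each difference had been reached. Its members were the 3 arrays labelled pnd2 and the 3 labelled gd12, 6 of the 16 arrays of the series. The 9 arrays of gestational days 14, 16 and 18 (gd14, gd16 and gd18, 3 arrays each) served to place the half-way point, and 1 array of pooled newborns was not used. All animals were wild-type CD-1 males, an outbred stock, from time-mated dams. The labels place pnd2 at Theiler stage 27 and gd12 at Theiler stage 20. Organs were excised whole, and total RNA went through 2 rounds of amplification before hybridisation to Affymetrix arrays. The extraction protocol carries the name of whole testes. The labels mark each gd12 and gd14 sample as a pool of 3 and those of gd16, gd18 and pnd2 as not pooled, whereas the design text assigns every sample to a single animal. By the sample labels pooling therefore went with stage, and these cannot be told apart between pnd2 and gd12.

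The epididymis is the coiled duct in which sperm mature and are stored. Its origin is the embryonic Wolffian duct, which androgens from the fetal testis maintain, while the surrounding mesenchyme forms matrix and a coat of smooth muscle and the lining becomes a secretory epithelium. At the earliest stage the duct lies beside the gonad and the mesonephros, a transient kidney. In a whole organ, fewer cells of a type and less RNA per cell cannot be told apart.

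Signal is the intensity of a probe set, a group of short probes for 1 transcript. It was taken as log2(signal + 16), and each of 12231 genes was represented by 1 probe set. A gene was called where its adjusted p was under 0.05 in limma's moderated test over 15 arrays. Folds are on the log2(signal + 16) scale, so they understate differences that involve signals near or below 16. Levels are compared between stages and never between genes. The 3' to 5' signal ratio of Gapdh was 63.16 on pnd2 replicate 3 and 4.333 to 7.18 on the other 14 arrays. The median signal of that array was 81.27, against 110.45 to 133.29. On pnd2 replicate 2, 17 skeletal muscle markers summed to a signal of 12870, against 726.4 and 617.8 on pnd2 replicates 1 and 3 and 855.5 to 1012 at gd12. Leaving out replicate 3 thus leaves the array with muscle transcripts as 1 of 2, and the part of either array in the results was not tested beyond the fits without it.

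Of the 12231 genes 3361 (27.5%) differed between pnd2 and gd12, 1762 (14.4%) higher and 1599 (13.1%) lower at pnd2. At an unadjusted p under 0.05 there were 4899. Of those called, 2024 differed at least 2-fold. Without pnd2 replicate 3, 4366 genes (35.7%) were called, 2290 (18.7%) higher and 2076 (17.0%) lower. The calls shared by both fits numbered 3023, and 0 of them had opposite signs. The median log2 change over all genes was -0.07. Centring each array on its median moved it to 0.08 and the calls to 1981 higher and 1156 lower, so that 63.1% were higher, against 52.4% without centring.

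The half-way stage of a gene is the first of gd14, gd16, gd18 and pnd2 whose mean lay at or past the midpoint of the gd12 and pnd2 means on the log2 scale. It was gd14 for 1682 of the 3361 genes (50%), gd16 for 552 (16.4%), gd18 for 514 (15.3%) and pnd2 for 613 (18.2%). Of the genes higher at pnd2, 856 were half-way at gd14, 294 at gd16, 322 at gd18 and 290 at pnd2. The corresponding counts of genes lower at pnd2 were 826, 258, 192 and 323. Without pnd2 replicate 3 the shares were 57.7%, 15.5%, 14.8% and 12.0%. The share placed at pnd2 was 34.7% without pnd2 replicate 1 and 34.5% without replicate 2, so it rested on which pnd2 arrays were used. Replicate 3 lay farther from gd12 than both other pnd2 arrays for 84.7% of the genes placed at pnd2, against 56.4% of those placed at gd14. The half-way stage was the same with each of the 15 arrays left out in turn for 1981 genes, 1311 of them at gd14, 170 at gd16, 196 at gd18 and 304 at pnd2.

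**Figure D1:**
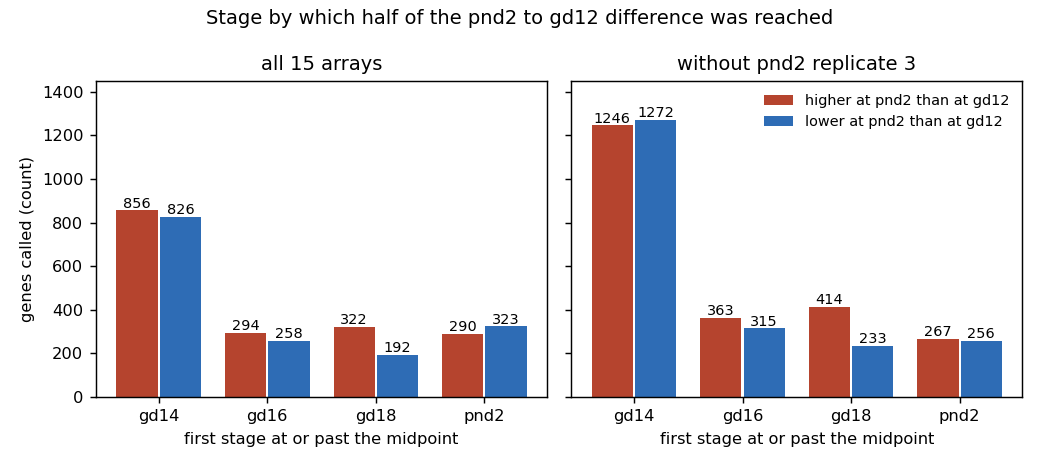
Number of called genes (y axis) by the first stage at or past the midpoint between gd12 and pnd2 (x axis), for genes higher (red) and lower (blue) at pnd2, with all 15 arrays (left) and without pnd2 replicate 3 (right). In both panels gd14 holds the most genes, 1682 of 3361 with all arrays.

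For most genes the arrays did not settle on which side of the midpoint a stage lay. In limma contrasts of each fetal stage against the midpoint, gd14 was past it for 234 of the 3361 genes (6.96%), short of it for 156 (4.64%) and unresolved for 2971. At gd16, 537 genes (16.0%) were past it and 135 (4.02%) short, and at gd18, 679 (20.2%) were past it and 19 (0.565%) short. Without pnd2 replicate 3, 708 of 4366 genes (16.2%) were past the midpoint at gd14 and 361 (8.27%) short of it. In the same fit 1330 (30.5%) were past it and 280 (6.41%) short at gd16, and 1679 (38.5%) past and 59 (1.35%) short at gd18. A half-way stage below is therefore the position of means, and the test is given where it was passed.

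The matrix of the mesenchyme gave the longest list of rises, and most of these were half-way at gd14. Of 32 measured genes of elastic fibres and proteoglycans 26 (81.2%) were higher at pnd2 and 0 lower, with a median log2 change of 2.11 over all 32, against -0.07 over all genes. Of the 26, 21 were half-way at gd14, 3 at gd16 and 2 at gd18. Of 22 collagen genes 17 (77.3%) were higher and 3 (13.6%) lower, against 14.4% and 13.1% over all genes. Of the 17, 13 were half-way at gd14, against 856 of the 1762 rises over all genes. Ogn (osteoglycin, a small leucine-rich proteoglycan) had signals of 9914, 10800 and 19980 at pnd2, against 12.57, 48.25 and 94.07 at gd12. All pnd2 arrays lay above all gd12 arrays, as was required of genes named by size. The fold of 220 was the largest rise among the genes named by size (log2 change 7.78 ± 0.37, SE, n = 3 per stage, limma adjusted p = 4.33e-09). Each SE here and below rests on a spread pooled over all 15 arrays. The SD of Ogn on the log2 scale was 0.55 at pnd2 and 0.98 at gd12, against 0.08, 0.12 and 0.19 at gd14, gd16 and gd18. The gd14 arrays already read 1632, 1484 and 1651, which is 61.3% of the way. Col6a1, a chain of the microfibrillar collagen VI, read 19660, 22650 and 23700 at pnd2, against 774, 1468 and 2338 at gd12. It had covered 77.0% of its change at gd14, significantly past the midpoint (limma adjusted p = 0.0164), and 102.2% at gd18. Lox, the enzyme that cross-links collagen and elastin, was 21.6-fold higher (4.43 ± 0.23) and stood at 55.2% at gd14 and 101.8% at gd18.

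Later matrix genes were fewer. Eln (elastin) read 1416, 1745 and 946.8 at pnd2, against 189.4, 158.4 and 189.8 at gd12, and was half-way at gd16. It stood at 30.5% of its change at gd14 and at 78.2% at gd16. Mfap5, a microfibril-associated glycoprotein, read 1204, 1507 and 1012 at pnd2, against 99.25, 51.6 and 92.06 at gd12. At gd14 and gd16 it had covered -0.4% and 7.8% of the change, both short of the midpoint (limma adjusted p = 0.000662 and 0.00142), and it was half-way at gd18. The 3 collagen genes of the list that fell were Col2a1 and Col9a1, chains of cartilage collagens, and Col18a1, with log2 changes of -2.58, -1.48 and -1.47. Col9a3, another cartilage collagen chain that is not on the list and was named by its size, fell further. It read 7.38, 13.14 and 18.07 at pnd2, against 597, 3150 and 2749 at gd12 (-5.94 ± 0.57), and was half-way at gd14. Its log2 change was -6.70 without gd12 replicate 13.

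Among the remaining large rises half-way at gd14 were a transcription factor, a receptor and a neuropeptide precursor. Nfix, a nuclear factor I protein, read 5384, 4791 and 14210 at pnd2, against 4.86, 72.19 and 113.3 at gd12 (6.86 ± 0.52, adjusted p = 3.91e-07 in limma). Without gd12 replicate 13, the lowest array, its log2 change was 6.07. Adgrg2, an adhesion receptor of the efferent ducts and epididymis, read 12100, 10810 and 14560 at pnd2, against 24.53, 81.21 and 517.1 at gd12. The spread over the gd12 arrays was wide, and the log2 change of 6.60 became 5.77 without gd12 replicate 13 and 7.63 without gd12 replicate 15. Penk (proenkephalin) read 6802, 8342 and 4184 at pnd2, against 32.87, 138.5 and 235.9 at gd12, a log2 change of 5.65 that was 4.98 without gd12 replicate 13.

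Of 8 measured genes for steroid receptors and steroid enzymes 5 (62.5%) were higher and 1 (12.5%) lower, against 14.4% and 13.1% over all genes. Of the 5 rises 3 were half-way at gd14, 1 at gd16 and 1 at gd18. Esr1, the estrogen receptor alpha, read 5780, 10620 and 6444 at pnd2, against 560.1, 207.8 and 546.7 at gd12, 17.6-fold higher (4.14 ± 0.31, limma adjusted p = 4.02e-07). It had covered 84.0% of the change at gd14, past the midpoint (limma adjusted p = 0.00828), and 99.4% at gd16. Nr3c1, the receptor for glucocorticoids, rose 4.1-fold and stood at 80.9% by gd14. Pgr, the progesterone receptor, read 316.5, 316.4 and 1072 at pnd2, against 121.8, 14.39 and 150.2 at gd12. It was half-way at gd16 with 51.0% covered, and at gd14 without pnd2 replicate 3. Its log2 change of 2.48 was 1.71 without gd12 replicate 14. Cyp7b1, a hydroxylase of steroids, was 10.8-fold higher and at 94.2% by gd14. Hsd11b2, which inactivates glucocorticoids, was 3.37-fold lower and at 76.4% by gd14. Sult1e1, the estrogen sulfotransferase, was late by contrast. It read 894.7, 1016 and 2224 at pnd2, against 47.6, 5.67 and 12.46 at gd12, stood short of the midpoint at gd14 (limma adjusted p = 0.00585) and was half-way at gd18.

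Wnt and Hox genes that rose were mostly half-way at gd14. Of 42 Wnt pathway genes 13 (31.0%) were higher and 5 (11.9%) lower, against 14.4% and 13.1% over all genes, with a median log2 change of 0.15. All 13 rises were half-way at gd14. The falls numbered 3 without gd12 replicate 15. In a limma fit to the 6 end arrays alone 5 Wnt pathway genes were higher and 1 lower. In the list of FGF, EGF, HGF, GDNF and IGF signalling, 6 of 11 rises were half-way at gd14, 3 at gd16 and 2 at gd18. Over all genes 856 of the 1762 rises were half-way at gd14, so the timing of these rises did not stand out. Of 31 measured members of that list 11 (35.5%) were higher and 7 (22.6%) lower, against 14.4% and 13.1% over all genes. In the limma fit to the 6 end arrays alone 6 were higher and 4 lower. Rspo3, a secreted enhancer of Wnt signalling, read 2822, 2700 and 5437 at pnd2, against 631, 179 and 242.8 at gd12 (3.44 ± 0.36), and stood at 100.4% of its change at gd16. Of 23 Hox genes, which set position along the body axis, 10 (43.5%) were higher and 0 lower. Of the 10, 9 were half-way at gd14. The count of rises was 2 in a limma fit to the 6 end arrays alone and 6 without gd12 replicate 14. Hoxb3 read 146.2 on that array, against 950.4 and 695.4 on the other gd12 arrays and 2991, 1825 and 2027 at pnd2. Without that array its log2 change of 2.22 became 1.44.

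Markers of macrophages and other leukocytes were higher at pnd2, with gd14 means already near those of pnd2. Of 22 measured leukocyte markers 14 (63.6%) were higher and 0 lower, against 14.4% and 13.1% over all genes, and all 14 were half-way at gd14. Their median stood at 105.9% of the change at gd14, 88.5% at gd16 and 78.6% at gd18. Csf1r, the receptor for the macrophage growth factor, read 4358, 5673 and 6178 at pnd2, against 2573, 1023 and 1387 at gd12, with the gd14 arrays at 3855 to 4703. The summed signal of 26 markers was 17160 to 22260 at pnd2, against 5039 to 11160 at gd12.

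**Figure D2:**
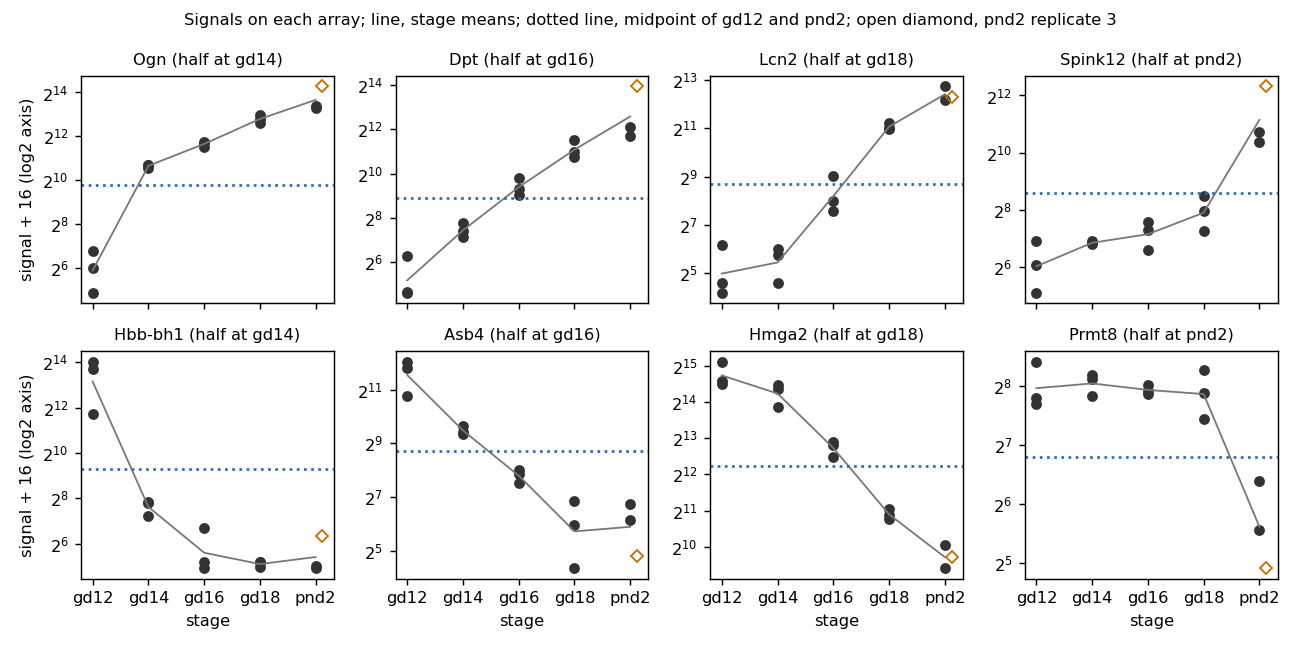
Signal plus 16 on a log2 axis (y) by stage (x) for 4 genes that rose (top) and 4 that fell (bottom), 1 for each half-way stage from gd14 to pnd2. Points are arrays, lines join stage means, dotted lines mark the midpoint of gd12 and pnd2, and open diamonds are pnd2 replicate 3. Spink12 and Prmt8 cross the midpoint only between gd18 and pnd2.

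The half-way stages of smooth muscle genes were spread over gd14, gd16 and gd18. Of 18 measured contractile genes 11 (61.1%) were higher and 0 lower, against 14.4% and 13.1% over all genes. The median log2 change over the 18 was 2.72. Of the 11, 3 were half-way at gd14, 4 at gd16 and 4 at gd18. Acta2, the smooth muscle actin, read 38630, 40140 and 39460 at pnd2, against 4009, 2019 and 1901 at gd12 (3.98 ± 0.23, limma adjusted p = 2.28e-08). It stood at 43.3% of the change at gd14, 73.4% at gd16 and 91.5% at gd18, and was past the midpoint at gd16 (limma adjusted p = 0.00867). Myh11, the smooth muscle myosin heavy chain, read 1548, 1955 and 893.1 at pnd2, against 85.64, 44.81 and 93.29 at gd12. It was short of the midpoint at gd14 (limma adjusted p = 0.00833) and half-way at gd18. Cnn1 (calponin) read 770.2, 939.9 and 105.1 at pnd2, against 23.79, 14.48 and 3.58 at gd12, with replicate 3 far below the other pnd2 arrays. Without that array its log2 change of 3.97 became 4.91. Tagln (transgelin) was low on the same array, at 970.4 against 6213 and 7209 on the other pnd2 arrays, and its change of 3.90 became 4.82.

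Other rises half-way at gd16 included a matrix protein, a proteoglycan and an epithelial transcription factor. Dpt (dermatopontin, a matrix protein) read 4416, 3294 and 15790 at pnd2, against 9.35, 8.32 and 61.71 at gd12, and its log2 change of 7.40 was 6.72 without pnd2 replicate 3. Aspn (asporin, a small leucine-rich proteoglycan) read 1997, 2542 and 3660 at pnd2, against 5.63, 2.81 and 7.43 at gd12 (6.97 ± 0.22, limma adjusted p = 1.09e-10). It covered 46.2% of the change at gd14 and 72.0% at gd16. Ehf, an epithelial ETS factor, read 1489, 1435 and 2469 at pnd2, against 13.73, 5.56 and 4.03 at gd12, with 37.3% covered at gd14 and 55.2% at gd16. Irs4, which relays insulin receptor signals, rose 40.3-fold and stood at 21.2% of its change at gd14 and 63.0% at gd16.

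Secretory and defence genes of the epithelium were half-way at gd18 more often than at any other stage. Of 17 measured epididymal secreted and defence proteins 9 (52.9%) were higher and 0 lower, against 14.4% and 13.1% over all genes. Of the 9 rises 6 were half-way at gd18. The median of the 9 covered 12.4% of the change at gd14, 33.2% at gd16 and 62.0% at gd18, against 48.6%, 60.9% and 79.0% over all genes that rose. Without pnd2 replicate 3 the called members, 9 higher and 1 lower, were half-way 3 at gd14, 1 at gd16, 5 at gd18 and 1 at pnd2. Lcn2, an iron-scavenging lipocalin, read 4626, 6803 and 4932 at pnd2, against 56.91, 2.16 and 8.12 at gd12 (7.41 ± 0.49). It was short of the midpoint at gd14 (limma adjusted p = 0.000662) and past it at gd18 (adjusted p = 0.00375), with gd18 arrays at 1962 to 2347. Without gd12 replicate 13 the log2 change was 8.01. Defb29, a beta-defensin, read 3700, 4095 and 8120 at pnd2, against 85.27, 33.7 and 3.44 at gd12, and its log2 change of 6.76 was 6.14 without gd12 replicate 15. Cp (ceruloplasmin, a copper-carrying ferroxidase) read 699.7, 1589 and 1478 at pnd2, against 2.74, 36.2 and 11.55 at gd12, and stood at 39.5% at gd16 and 83.7% at gd18. Defb1, another beta-defensin, read 220, 164.8 and 433.2 at pnd2, against 12.82, 35.82 and 6.49 at gd12, and was half-way only at pnd2.

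Of 20 genes of complement and innate defence 12 (60.0%) were higher and 0 lower, 8 half-way at gd14 and 4 at gd18. Of 18 genes of antigen presentation and the interferon response 6 (33.3%) were higher and 0 lower, 4 of them half-way at gd18. Over all genes 14.4% were higher and 13.1% lower. Ifitm3, an interferon-induced membrane protein, read 3515, 4148 and 8730 at pnd2, against 747, 1278 and 968.2 at gd12, with 25.7%, 25.4% and 62.6% of the change covered at gd14, gd16 and gd18.

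The epithelial list held both early and late genes. Of 33 measured keratin, junction and epithelial regulator genes 16 (48.5%) were higher and 1 (3.03%) lower, against 14.4% and 13.1% over all genes. Of the 16, 9 were half-way at gd14, 1 at gd16, 4 at gd18 and 2 at pnd2. Over all genes 856 of the 1762 rises were half-way at gd14, a similar share. Cldn1, a tight junction claudin, read 978.2, 1040 and 1179 at pnd2, against 19.41, 47.86 and 56.38 at gd12. It had covered 97.1% of the change at gd14, past the midpoint (limma adjusted p = 0.000134). Epcam, an epithelial adhesion molecule, read 10250, 10270 and 6431 at pnd2, against 2873, 3530 and 3005 at gd12. It had covered 4.2% and -3.7% at gd14 and gd16, both short of the midpoint (limma adjusted p = 0.0304 and 0.00903), and 68.3% at gd18. Trp63, the factor of basal epithelial cells, read 266.7, 171.9 and 252.1 at pnd2, against 37.57, 118.6 and 98.82 at gd12. Its gd14, gd16 and gd18 means all lay below gd12 and short of the midpoint (limma adjusted p = 0.0146, 0.0102 and 0.0262), and it was half-way at pnd2. Summed over 12 markers of the duct epithelium the signal was 41410 to 46350 at pnd2, against 7705 to 12110 at gd12.

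**Figure D3:**
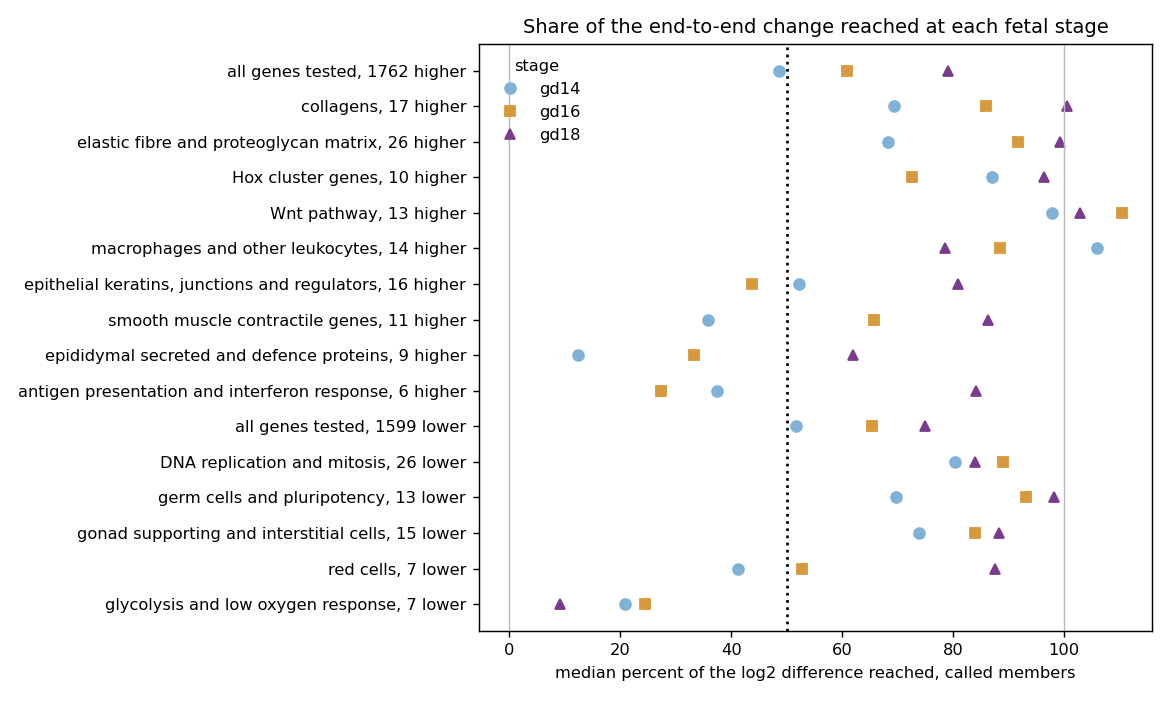
Median share of the log2 difference between pnd2 and gd12 (x axis, percent) reached at gd14 (circles), gd16 (squares) and gd18 (triangles) over the called members of each list (y axis, with the number called). The dotted line is 50%, and secreted and defence proteins stood at 12.4% at gd14 while collagens stood at 69.3%.

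The 290 genes that rose and were half-way only at pnd2 (267 without pnd2 replicate 3) included protease inhibitors, a receptor and a transcription factor. Spink12, a Kazal-type protease inhibitor, read 1311, 1691 and 5110 at pnd2, against 106.2, 18.4 and 52.36 at gd12, and had covered 36.5% of its change at gd18. Its log2 change of 5.10 was 4.51 without pnd2 replicate 3. Npy6r, a neuropeptide Y receptor gene, read 753.6, 874.6 and 1120 at pnd2, against 48.85, 24.74 and 43.12 at gd12, with 33.2% covered at gd18. Pzp, an alpha-2-macroglobulin-type protease inhibitor, read 996, 585.4 and 846.6 at pnd2, against 31.21, 53.23 and 24.55 at gd12, with 29.7% covered at gd18. Lhx1, a LIM homeobox factor of the Wolffian duct, read 537.3, 867.1 and 1604 at pnd2, against 247.2, 326.5 and 288.6 at gd12, and stood at 26.3% at gd18. The pnd2 and gd12 arrays did not overlap in these genes. That was a condition for naming Spink12, Npy6r and Pzp, while Lhx1 was named as a list member. The share of all genes without overlap was not counted.

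The metallothioneins Mt1 and Mt2, small metal-binding proteins that take up zinc and copper, rose together. Mt2 read 4785, 3447 and 5038 at pnd2, against 538.6, 478.1 and 322.6 at gd12 (3.27 ± 0.33, limma adjusted p = 5.69e-06). It was short of the midpoint at gd14 and gd16 (limma adjusted p = 0.0408 and 0.025). Mt1 read 950.2, 833.3 and 3640 at pnd2, against 376.6, 230.5 and 251.3 at gd12. Both were half-way at pnd2, although Mt1 was half-way at gd18 without pnd2 replicate 3, where its log2 change of 2.29 became 1.61.

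Transcription factors of the Wolffian duct and mesonephros moved both ways. Of 13 measured 5 (38.5%) were higher and 5 (38.5%) lower, against 14.4% and 13.1% over all genes. Without gd12 replicate 14, 3 were higher. Of the 5 rises 3 were half-way at pnd2, and without pnd2 replicate 3 that stage held 2 of the called members in either direction. Tcf21, a factor of mesenchymal cells, read 5429, 5988 and 6483 at pnd2, against 3463, 3575 and 4034 at gd12 (0.69 ± 0.13, limma adjusted p = 0.00121), and was half-way at gd18. Wt1, a zinc finger factor of the urogenital ridge, read 627.6, 731.5 and 655.2 at pnd2, against 1944, 1646 and 1719 at gd12 (-1.38 ± 0.17), and was also half-way at gd18. Sall1, a zinc finger factor of kidney mesenchyme, read 26.28, 44.47 and 59.06 at pnd2, against 299.3, 197.8 and 191.7 at gd12, and was half-way at gd16. In none of these 3 genes did the pnd2 and gd12 arrays overlap, and the share of all genes without overlap was not counted. Other called members were less stable. Without gd12 replicate 14 the call was lost for Emx2 and Sim1 (limma adjusted p = 0.157 and 0.0583), and without gd12 replicate 13 for Foxc1 (0.0929).

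Most of the largest falls belonged to genes of germ cells, of the gonad and of embryonic red cells. Of 15 measured germ cell and pluripotency markers 13 (86.7%) were lower and 0 higher, against 13.1% and 14.4% over all genes. The median log2 change over the 15 was -3.96, and 10 of the 13 were half-way at gd14. Dppa5a, a pluripotency-associated gene of germ cells, read 78.7, 133.5 and 96.68 at pnd2, against 10010, 13100 and 13520 at gd12 (-6.70 ± 0.28, limma adjusted p = 1.71e-09). The gd14 arrays read 377.6 to 644.6, 69.7% of the way. Dazl, an RNA-binding protein of germ cells, read 39.47, 2.11 and 32.19 at pnd2, against 1216, 2611 and 2086 at gd12, with 55.0% covered at gd14.

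Of 18 measured genes of gonad supporting and interstitial cells 15 (83.3%) were lower and 0 higher, against 13.1% and 14.4% over all genes. Of the 15, 13 were half-way at gd14. Rhox5, a homeobox gene of Sertoli cells, read 60.18, 9.75 and 50.16 at pnd2, against 5008, 7828 and 4624 at gd12. Amhr2, the receptor for anti-Mullerian hormone, is not on the list and was named by its size. It read 99.49, 191.7 and 66.74 at pnd2, against 6288, 7088 and 8377 at gd12, and was half-way at gd16 with 51.9% covered. Summed over 18 germ cell genes the signal was 1642 to 1898 at pnd2, against 22850 to 35670 at gd12, and over 21 gonad genes 2252 to 2778, against 21170 to 35810. Of the germ cell genes 14 to 16 lay below the array's median at pnd2, against 2 to 3 at gd12. The part of attached gonad tissue in these and the other falls half-way at gd14 was not tested.

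Of 10 measured red cell genes 7 (70.0%) were lower and 0 higher, against 13.1% and 14.4% over all genes. The half-way stages of the 7 ranged over the whole series. Hbb-bh1 and Hba-x, embryonic globins, and Hbb-y, the embryonic beta-like globin, read 14 to 64.4, 4.55 to 35.24 and 1.32 to 27.9 at pnd2, against 3389 to 16710, 2676 to 4743 and 35000 to 42100 at gd12. Hbb-bh1 was half-way at gd14, Hba-x at gd16 and Hbb-y at gd18. The log2 change of Hbb-bh1 was -7.74, and -8.44 without gd12 replicate 15. Hbb-y had covered 3.5% of its change at gd14, 34.1% at gd16 and 87.5% at gd18, the largest fall of the genes named by size (-10.63 ± 0.48). Alas2, the first enzyme of haem synthesis in red cells, read 204.6, 85.32 and 6.95 at pnd2, against 576.6, 545.6 and 518.9 at gd12, while the gd16 arrays read 4462, 1553 and 897.1. It was half-way only at pnd2, and its change of -2.81 was -1.91 without pnd2 replicate 3 and -3.54 without pnd2 replicate 1.

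**Figure D4:**
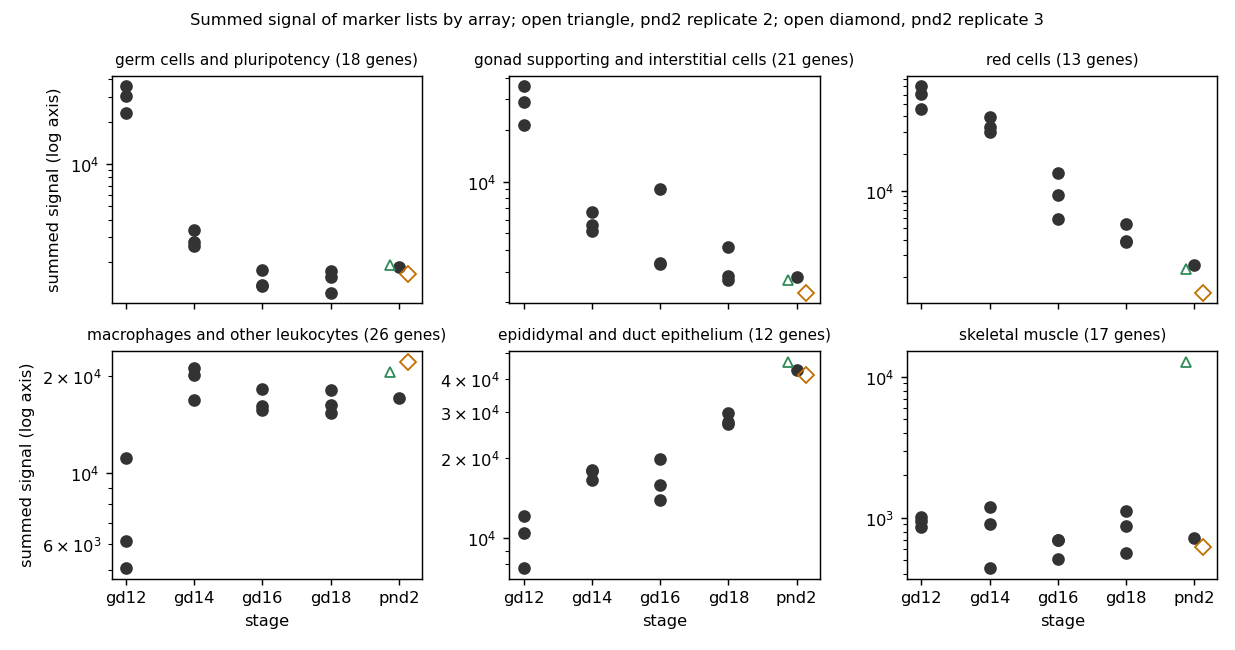
Summed signal of 6 marker lists (y, log axis) on each array by stage (x), with pnd2 replicates 2 and 3 as open triangles and diamonds. Germ cell, gonad and red cell sums are highest at gd12, and skeletal muscle stands out on pnd2 replicate 2 alone, at 12870.

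Of 13 measured fetal growth and chromatin genes 6 (46.2%) were lower and 0 higher, against 13.1% and 14.4% over all genes. Without pnd2 replicate 3, 10 were lower and 1 higher. Hmga2, an architectural chromatin protein of fetal cells, read 1041, 663.6 and 824.9 at pnd2, against 35420, 23180 and 24200 at gd12 (-5.00 ± 0.21, limma adjusted p = 1.71e-09), with 10%, 39.8% and 76.5% covered at gd14, gd16 and gd18. Hgf, the hepatocyte growth factor made by mesenchyme, was named by its half-way stage, as was Asb4 below. Hgf read 62.2, 90.29 and 10 at pnd2, against 541.5, 742.3 and 524.5 at gd12, and was half-way at gd18. Its change of -3.35 was -2.75 without pnd2 replicate 3. Asb4, a subunit of ubiquitin ligases, read 54.67, 91.55 and 12.02 at pnd2, against 4199, 3564 and 1722 at gd12, and was half-way at gd16.

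Of 49 measured genes of DNA replication and mitosis 26 (53.1%) were lower and 0 higher, against 13.1% and 14.4% over all genes. Of the 26, 23 were half-way at gd14. The median log2 change over the 49 was -0.58, and the called members ran from -0.49 to -2.08. The largest fall was that of Cdk2, a cell cycle kinase, which read 1174, 194.5 and 161.2 at pnd2, against 1213, 1462 and 1834 at gd12, was half-way at pnd2 and changed by -2.95 without pnd2 replicate 1. The falls numbered 33 without pnd2 replicate 3, 20 after median centring and 6 in the limma fit to the 6 end arrays alone. Mcm2, a subunit of the replicative helicase, read 2116, 2155 and 1337 at pnd2, against 4910, 5022 and 4331 at gd12 (-1.37 ± 0.20, limma adjusted p = 0.000167). Mcm3, another subunit, read 1486, 1705 and 1303 at pnd2, against 2578, 3683 and 3502 at gd12 (-1.10 ± 0.16). Aurka, a mitotic kinase, read 996, 892.5 and 205.5 at pnd2, against 2117, 2329 and 2203 at gd12, and its change of -1.92 was -1.22 without pnd2 replicate 3.

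The start regions of genes that moved together were searched for 3 motifs, chosen after the members' values had been seen, on both strands of the 300 bases from 250 before to 50 after each annotated start (RefSeq, GRCm38.p6). E2F sites, written TTTCCCGC or TTTGGCGC, stood in 514 of 32851 start regions (1.56%), in 11 of the 43 matched for the replication and mitosis list and in 9 of the 25 matched for its called members. Regions are counted and not genes, and Mcm7 has 1 with a site and 1 without. Among the called members with sites were Mcm6 and Cdc6, whose start regions were also read. CArG boxes, the sites of serum response factor, were written CCWWWWWWGG, where W is A or T. They stood in 535 (1.63%), in 4 of the 18 matched for the smooth muscle list and in 1 of the 7 matched for its called members (Myl9). The windows of Acta2, Cnn1 and Mylk had 0 such matches. That of Acta2 holds ccctatatgg and ccttgtttgg, each 1 letter off, and sequences off by 1 letter were not counted. Metal response elements, written TGCACNC or TGCGCNC, stood in 8444 (25.7%), with 3 sites at Mt1 and 4 at Mt2, and 2 or more in 7.11% of all start regions. The E2F and metal response letters share GCGC, so their matches can overlap, and each region was marked for 1 motif. A match describes letters only, no match says nothing of the factor, and the shares were not tested. The 4 regions shown are those of the 2 helicase subunits, of which Mcm3 has 2 E2F sites and Mcm2 has 0, and of the 2 metallothioneins, with matches in capitals, 5' to 3' on the gene's strand. They lie at chr6:88898731-88899030 (Mcm2, minus strand), chr1:20820263-20820562 (Mcm3, minus strand), chr8:94178839-94179138 (Mt1, plus strand) and chr8:94172368-94172667 (Mt2, plus strand).
Mcm2: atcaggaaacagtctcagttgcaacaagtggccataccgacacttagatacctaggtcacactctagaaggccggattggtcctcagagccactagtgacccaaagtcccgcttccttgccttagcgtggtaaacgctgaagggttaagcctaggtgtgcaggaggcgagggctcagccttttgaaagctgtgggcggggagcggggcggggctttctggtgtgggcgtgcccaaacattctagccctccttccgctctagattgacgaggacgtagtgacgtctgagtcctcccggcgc
Mcm3: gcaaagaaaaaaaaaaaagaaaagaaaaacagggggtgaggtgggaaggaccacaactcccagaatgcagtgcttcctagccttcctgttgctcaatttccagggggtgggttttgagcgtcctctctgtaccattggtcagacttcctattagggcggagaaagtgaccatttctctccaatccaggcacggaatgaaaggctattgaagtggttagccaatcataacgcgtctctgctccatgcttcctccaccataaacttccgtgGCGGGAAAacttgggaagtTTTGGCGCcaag
Mt1: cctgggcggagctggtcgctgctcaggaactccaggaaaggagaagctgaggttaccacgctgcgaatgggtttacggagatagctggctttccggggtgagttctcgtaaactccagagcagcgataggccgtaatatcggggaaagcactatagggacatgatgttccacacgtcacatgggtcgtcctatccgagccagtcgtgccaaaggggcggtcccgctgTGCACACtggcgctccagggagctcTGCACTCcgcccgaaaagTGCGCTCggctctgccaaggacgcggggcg
Mt2: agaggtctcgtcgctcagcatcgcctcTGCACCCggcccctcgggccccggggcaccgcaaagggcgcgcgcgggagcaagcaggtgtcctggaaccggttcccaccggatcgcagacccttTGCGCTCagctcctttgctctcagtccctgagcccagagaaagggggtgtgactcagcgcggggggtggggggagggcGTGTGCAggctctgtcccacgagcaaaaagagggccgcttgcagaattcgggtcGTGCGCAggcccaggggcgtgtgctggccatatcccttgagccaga

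The half-way stages of glycolysis genes, and the number called, depended on single arrays. Of 23 measured members 7 (30.4%) were lower and 0 higher, against 13.1% and 14.4% over all genes. Of the 7, 5 were half-way at pnd2. The count of falls was 3 without gd12 replicate 14. With pnd2 replicate 3 left out, 10 were lower and 2 higher, and of these 7 were half-way at gd14, 1 at gd16 and 4 at pnd2. Slc2a3, a glucose transporter, read 711.3, 717.1 and 676.9 at pnd2, against 1710, 1898 and 1846 at gd12 (-1.35 ± 0.18), and was short of the midpoint at gd14 (limma adjusted p = 0.0167). Pgam1, a phosphoglycerate mutase, read 3663, 3216 and 3161 at pnd2, against 6460, 7223 and 8282 at gd12, and was short of the midpoint at gd18 (limma adjusted p = 0.0491). Both kept pnd2 as the half-way stage with every array left out in turn. Pkm, a pyruvate kinase, read 5162, 5258 and 318.7 at pnd2, against 9886, 8004 and 9542 at gd12. Its log2 change of -2.13 was -0.80 without pnd2 replicate 3, where it was half-way at gd14, and the call was lost without any single gd12 array (limma adjusted p = 0.094, 0.0783 and 0.0948). Single fetal arrays also mattered to that call, which was lost without each of the 9 in turn, at adjusted p of 0.0508 to 0.0521.

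Other falls half-way at pnd2 included an enzyme, a receptor and a secreted protein. Prmt8, an arginine methyltransferase, read 30.9, 67.46 and 13.87 at pnd2, against 324.7, 189.8 and 205.7 at gd12 (-2.35 ± 0.35, limma adjusted p = 0.000179), and had covered -3.4%, 1.4% and 4.3% at gd14, gd16 and gd18. Gfra3, a receptor for the GDNF family ligand artemin, read 24.69, 75.01 and 75.58 at pnd2, against 396.9, 260.6 and 216.6 at gd12. Stc1 (stanniocalcin, a secreted glycoprotein) read 211.8, 290.4 and 61.07 at pnd2, against 322.2, 966.2 and 1225 at gd12, and its change of -2.09 was -1.49 without pnd2 replicate 3.

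Some genes changed over the stages without a call between the ends, which does not show that the ends were alike. The moderated F test over the 5 stages called 3239 genes (26.5%), 844 of which were not called between pnd2 and gd12. Without pnd2 replicate 3 it called 5590 (45.7%), 1720 of them not called between the ends. Aldh1a1, a retinaldehyde dehydrogenase, read 11470, 12290 and 16040 at pnd2, against 6143, 16440 and 13580 at gd12, and 1363 to 1974 at gd14 (limma F test adjusted p = 1.64e-05). Wif1, a secreted Wnt inhibitor, read 13.99, 61.34 and 32.3 at pnd2, against 81.84, 107.6 and 59.64 at gd12, and 471.3 to 638.2 at gd14. Its log2 change between the ends was -1.01 ± 0.38 (limma adjusted p = 0.0624). Adm (adrenomedullin, a vasodilator peptide) read 1713, 1682 and 1609 at pnd2, against 2212, 2596 and 969.2 at gd12, and 314.9 to 457.3 at gd16. Of the called genes 4 turned back significantly between gd18 and pnd2 (21 without pnd2 replicate 3). One was Col8a1, a short-chain collagen, which read 421.2, 317.9 and 427.9 at pnd2, against 75.55, 36.23 and 50.98 at gd12, after 908.5 to 1549 at gd18.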

How the data were processed

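The authors deposited an intensity, called signal here, for every probe set on every array, made with GCOS, the Affymetrix scanner software, per the submitters' processing notes; the sources used here do not give its version or signal algorithm. Each array had been scaled by 1 factor to a common trimmed mean, as seen in the values, and no further normalization was applied. Scaling leaves RNA quality and amplification bias towards 3' ends in place.

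Of 45101 probe sets, those at or above their array's median on at least 3 of 15 arrays were kept (25960). The platform annotation gave 21597 of these 1 symbol, and the brightest probe set stood for each of 12231 genes. Values were log2(signal + 16), fitted with 1 mean per stage in limma 3.58.1 (R 4.3.3, lmFit and eBayes with an intensity trend) and adjusted by Benjamini-Hochberg over all genes. All p-values are two-sided. The fit was tested on simulated data with step changes and a capped spread that was equal at every stage. That test could not show how calls or half-way stages hold where pnd2 arrays differ more among themselves. Nothing in the array values gives a counting depth, and 3 arrays per stage limit the precision. The p-values measure the spread between these samples.

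The members and gene lists were chosen with earlier results of these data known. Genes were named by size (12 rises and 12 falls), by half-way stage (5 per stage and direction, stable with each array left out) or as list members, with clone and model names passed over. Those named by size or half-way stage had to be called with and without pnd2 replicate 3, with no overlap between pnd2 and gd12 arrays. Their mean in the higher stage had to reach the average of the array medians. The array of pooled newborns was left out because it belongs to no stage compared. Alternatives covered scaling, the constant, filters, probe set choice, variance model, thresholds, the half-way rule and arrays left out.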

Additional observations from a re-analysis of the deposited data

How the results depend on the processing

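With each of the 15 arrays left out in turn, the genes called between pnd2 and gd12 numbered 2502 to 4366, those higher 1377 to 2290 and those lower 1125 to 2076. The share half-way at gd14 was 37.9% to 57.7%, at gd16 14.2% to 17.5%, at gd18 13% to 18.6% and at pnd2 12.0% to 34.7%. The share past the midpoint was 2.45% to 16.2% at gd14, 8.45% to 30.5% at gd16 and 10.6% to 38.5% at gd18, and the share short of it 1.97% to 8.27%, 1.72% to 6.41% and 0.0966% to 1.35%. The F test called 2330 to 5590 genes. The lowest counts of calls came without gd12 replicate 14 and the highest without pnd2 replicate 3. Without pnd2 replicate 3, gd14 replicate 10 and gd16 replicate 9 together, 11.4% were half-way at pnd2, and 36.1% were past and 1.05% short of the midpoint at gd18. The share short at gd18 was 0.351% after median centring and 0.285% with no filter. With array quality weights, an alternative chosen for these results after seeing the data, 20.1%, 30.5% and 41.4% were past the midpoint at gd14, gd16 and gd18, 10.9%, 6.76% and 1.29% short, and the F test called 5498 genes. A fit to the 6 end arrays alone, with fewer samples to estimate the spread, called 1125 genes, 710 higher and 415 lower. Mean correlations with stage mates were 0.8443 to 0.9078 at pnd2 and 0.9568 to 0.9621 at gd12, against 0.9677 to 0.9757 on the arrays of gd14 to gd18. What part this had in the lower count was not tested. There were 1898 calls at an adjusted p under 0.01 and 2024 at 0.05 with at least 2-fold.

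Of the 46 genes named by size or half-way stage 44 were called under every alternative, and 2 lost the call in the 6-array fit only. Naming had required large changes, calls with and without pnd2 replicate 3 and no overlap, so these counts were largely set by the choice of genes. Of 336 called list members 155 lost it in some alternative, 92 of them apart from that fit. Signs turned for list members as follows, and the cause was not tested. Without pnd2 replicate 3, and also with the 3 arrays out, the log2 changes were 0.93 for Fbln1, 0.54 for Lama4, 0.43 for Dnmt3a, -0.38 for Dnmt1, 0.55 for Igf2r, 1.06 for Hoxc4, 0.66 for Tgfb2 and 0.52 for Tpi1. At the other end of the values with 1 array left out stood -1.04 for Fbln1, -0.95 for Lama4, -0.28 for Dnmt3a, 0.42 for Dnmt1, -0.36 for Tgfb2 and -0.56 for Tpi1. With quality weights they were 0.82 for Fbln1, 0.39 for Dnmt3a, 0.55 for Igf2r, 1.06 for Hoxc4 and 0.56 for Tgfb2. Avoiding probe sets that bind related sequences gave -0.03 for Sgce, -0.23 for Fgfr1, -0.04 for C1qb, -1.06 for Rpl35 and -0.77 for Rps9. The mean of all probe sets gave -0.63 for Fzd2 and -0.02 for Fgfr1. No paired analysis was possible because the replicate numbers run through the series and no stages share one.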

Other observations

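The comparison covered 40 gene lists, 26 of pathways and 14 of markers, and not all of them are described here. Among those left out, some lay near or below the shares over all genes and others above. Of 44 measured oxidative phosphorylation genes 3 (6.82%) were higher and 3 (6.82%) lower. Of 14 retinoic acid pathway genes 2 (14.3%) were higher and 1 (7.14%) lower. Of 16 protease inhibitors 9 (56.2%) were higher and 3 (18.8%) lower. Endothelial and imprinted genes follow. Of 18 measured endothelial markers 6 (33.3%) were lower and 2 (11.1%) higher at pnd2, against 13.1% and 14.4% over all genes. The median log2 change over the 18 was -0.48. Without gd12 replicate 14 there were 3 lower, without pnd2 replicate 3 there were 4, and in the limma fit to the 6 end arrays alone 0. Without gd12 replicate 13, 1 was higher. Flt1, a VEGF receptor, read 191.2, 199.1 and 145.7 at pnd2, against 419.5, 414.1 and 307.6 at gd12 (-1.02 ± 0.19, limma adjusted p = 0.0013), and was half-way at pnd2. Of 16 imprinted growth genes 5 (31.2%) were higher and 2 (12.5%) lower, against 14.4% and 13.1% over all genes, and 1 was lower without gd12 replicate 13. Dlk1, a membrane protein of the Notch ligand family, read 5045, 3769 and 2219 at pnd2, against 506.9, 1208 and 1238 at gd12 (1.91 ± 0.31), and was half-way at gd14. Mest, a hydrolase-fold protein, read 6242, 6068 and 1805 at pnd2, against 12620, 9497 and 11630 at gd12, and was half-way at pnd2, with replicate 3 the lowest array.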
